A study of Mus musculus with 14 samples.

Results

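Ribosome biogenesis genes encode the proteins that make ribosomes in the nucleolus, and their transcripts were followed through 4 subsets of mouse splenic B cells. The members were 39 genes named by symbol, and each was represented by its brightest probe set, the one with the highest mean log2 intensity over 14 arrays. Of the 39, 38 had a probe set that carried their symbol alone, among 18193 genes so represented in all, and Npm3 was not analysed here. The study hybridised RNA of sorted cells from spleens of male C57Bl/Ka mice to Affymetrix arrays. Naive B cells (3 arrays) came from mice of 4 to 8 weeks that were not immunized, and were sorted as B220+ CD23+ IgD+ cells with low IgM and the lambda light chain. The other subsets bound the hapten NP and came from mice given NP-CGG, a hapten on a carrier protein, precipitated in alum into the peritoneum at 100 µg (the label of plasma replicate 1 gives no dose). Plasma cells (4 arrays) were taken at day 7 from mice of 5 to 9 weeks as syndecan-1+ PNA- cells with low B220, and germinal center B cells (3 arrays) at day 14 from mice of 6 to 10 weeks as PNA+ cells with low CD38. Memory B cells (4 arrays) were taken 10 to 12 weeks after immunization from mice of 14 to 18 weeks as PNA- cells with high CD38 and without IgM or IgD. Subset, time after immunization and age therefore moved together and cannot be told apart. Whether replicates are separate animals is not in the labels. The p-values below speak only to the scatter among these samples, and that scatter could be technical.

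Ribosome production begins with transcription of the ribosomal RNA precursor by RNA polymerase I. Small nucleolar particles then guide chemical marks onto that RNA: box C/D particles direct 2'-O-methylation and box H/ACA particles direct pseudouridylation. Large processing complexes cut, fold and assemble the precursor into the small and the large subunit. The pathway is known as a target of the transcription factor Myc and as a companion of cell growth, and both dividing germinal center cells and antibody-secreting cells are known for heavy demands on protein synthesis.

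The subsets carried the markers of their labels. The summed intensity of 6 plasma cell markers was 30564 to 42290 on the plasma arrays and at most 5592 elsewhere. That of 6 germinal center markers was 11025 to 15037 on the germinal center arrays and 5632 to 6691 on the plasma arrays. The plasma sum was mostly Mki67, at a geometric mean of 5813, and Bcl6, Rgs13 and Gcsam were below background on every plasma array. The 3 memory markers summed to 221 to 356 on memory arrays and to at most 180.3 on the others. Cd80 and Pdcd1lg2 were highest in memory cells, but Nt5e had 101 in germinal center and 95.5 in memory cells. The mature B cell markers summed to 18298 to 20041 in naive, 16984 to 19634 in memory and 2039 to 3851 in plasma cells. None of 4 granulocyte, 3 erythroid and 3 natural killer cell markers lay above background on every array of any subset. The 7 myeloid markers summed to 494 to 810 on plasma arrays (5 of 7 above background on each) and to 434 to 640 on naive arrays. Of these 7, Cst3, Csf1r, Lyz2 and Cd68 were highest in plasma cells, Csf1r at a geometric mean of 71.9 against 29.3 in naive cells, Lyz2 at 26.8 against 10.7 and up to 93.1 on 1 array, and Cd68 at 20.5 against 8.13. Adgre1 was highest in naive cells, and Itgam and Cd14 were below background on every array. The 6 T cell markers summed to 627 to 909 in naive and 116 to 142 in plasma cells, a sum that is mostly Cd2 in naive cells. Cd3e (37.4 against 23.0), Cd8a (19.9 against 13.1) and Cd4 (19.3 against 16.7) were instead highest in plasma cells, and Cd3g was below background on every array. The part of these markers in the plasma cell results was not tested. The ratio of the 3' to the middle actin control probe set, a sign of RNA integrity and amplification, was 11.3 ± 5.81 (SD, n = 3) in germinal center cells, with 17.6 on replicate 2, against 4.79 ± 0.46 (SD, n = 3) in naive, 6.27 ± 0.72 (SD, n = 4) in plasma and 4.63 ± 0.50 (SD, n = 4) in memory cells.

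Promoter sequences of 5 members are shown as examples, chosen after their values were seen, of members called higher (Gnl3, Nop58, Nolc1) and lower (Mybbp1a, Utp14a) in plasma than in memory cells, with and without a variant of CACGTG, the sequence that Myc is known to bind. They are the 250 bases before an annotated start, 5' to 3' on the strand of the gene, from RefSeq on GRCm38.p6. Capitals mark the variant motif CACGCG or its reverse complement CGCGTG, and the Mybbp1a stretch joins both, overlapping. Gnl3 (chr14:31019132-31019381, minus strand) and Nop58 (chr1:59684756-59685005, plus strand) held neither motif in the stretch shown. Nolc1 is at chr19:46075597-46075846, Mybbp1a at chr11:72441077-72441326 and Utp14a at chrX:48256684-48256933, all on the plus strand.
Gnl3: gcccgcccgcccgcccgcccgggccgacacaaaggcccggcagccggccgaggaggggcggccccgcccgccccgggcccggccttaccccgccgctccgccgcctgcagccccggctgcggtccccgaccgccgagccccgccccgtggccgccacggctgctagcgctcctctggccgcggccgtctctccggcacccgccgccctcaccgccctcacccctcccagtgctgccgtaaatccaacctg
Nop58: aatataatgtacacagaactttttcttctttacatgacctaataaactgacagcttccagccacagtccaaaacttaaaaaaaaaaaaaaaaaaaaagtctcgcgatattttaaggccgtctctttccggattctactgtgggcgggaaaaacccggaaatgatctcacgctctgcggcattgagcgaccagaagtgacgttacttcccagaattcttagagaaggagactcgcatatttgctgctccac
Nolc1: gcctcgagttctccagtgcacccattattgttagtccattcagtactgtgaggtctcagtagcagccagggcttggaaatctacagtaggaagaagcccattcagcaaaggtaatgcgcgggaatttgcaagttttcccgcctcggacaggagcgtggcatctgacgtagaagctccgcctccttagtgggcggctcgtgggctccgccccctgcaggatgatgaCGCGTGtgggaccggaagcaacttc
Mybbp1a: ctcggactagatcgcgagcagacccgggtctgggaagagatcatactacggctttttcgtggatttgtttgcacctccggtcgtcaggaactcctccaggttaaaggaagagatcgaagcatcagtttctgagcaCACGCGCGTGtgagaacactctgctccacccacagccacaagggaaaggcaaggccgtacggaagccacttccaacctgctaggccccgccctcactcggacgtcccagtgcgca
Utp14a: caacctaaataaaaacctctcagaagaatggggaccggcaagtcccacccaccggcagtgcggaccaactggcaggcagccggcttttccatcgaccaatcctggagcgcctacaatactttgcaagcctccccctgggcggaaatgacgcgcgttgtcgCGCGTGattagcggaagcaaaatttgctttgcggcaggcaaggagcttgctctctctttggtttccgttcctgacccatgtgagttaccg
Windows from 250 bases before to 50 bases after a start were at hand for 33 of the 39 listed genes, Npm3 among them, 37 windows in all. CACGTG occurred in 6 of these (16.2%) and in 7.15% of all 32851 windows. CACGTG lay downstream of the start in Utp20, Pes1, Mybbp1a, Tsr1 and Wdr43, and 60 bases upstream in Nop2. CACGCG or CGCGTG occurred in 12 of 37 windows (32.4%) and in 9.27% of all. These are matches of letters on either strand, not sites. The variant motif lay before genes that were higher in plasma than in memory cells (Nolc1) and before genes that were lower (Mybbp1a, Utp14a).

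Members were called in both directions in 5 of the 6 pairs of subsets. Their rate was about that of all genes, dim genes included, and below that of genes above background on at least 3 arrays. Of 228 comparisons (38 members in 6 pairs), 51 passed a limma adjusted p of 0.05 (Benjamini-Hochberg over all 18193 genes), 22.4%, beside 22.5% of the same comparisons over all genes. Of the 51, 20 were at least 2-fold. A gene that passed is said below to be higher or lower, and differences are log2 intensity of the first subset minus the second. At least 1 comparison was called for 21 members. The other 17 were called in none: Ncl, Npm1, Fbl, Rrp9, Polr1a, Wdr75, Utp20, Nol6, Rrp12, Tsr1, Pes1, Nop2, Noc3l, Rrp1, Rrp1b, Rrs1 and Ebna1bp2. All 38 were above background on at least 3 arrays and 37 on all 14, the exception being Nop16. Among all genes, 12319 were above background on at least 3 arrays. Fitted alone, 5368 of these were called in plasma, 3577 in germinal center and 1110 in memory against naive cells. These are larger shares than among the members in the same comparisons, and larger than among all 18193 genes. The shares given below are those of all 18193. Many calls rest on 1 probe set. Gnl3, Nop58, Gar1, Nop14 and Polr1b have no other, and of the 39 calls of members with several sets, 5 were repeated on the second brightest set (Noc4l in 3 comparisons, Ddx18 in germinal center against naive and against memory cells), 21 were not called there and 13 had the opposite sign.

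**Figure D1:**
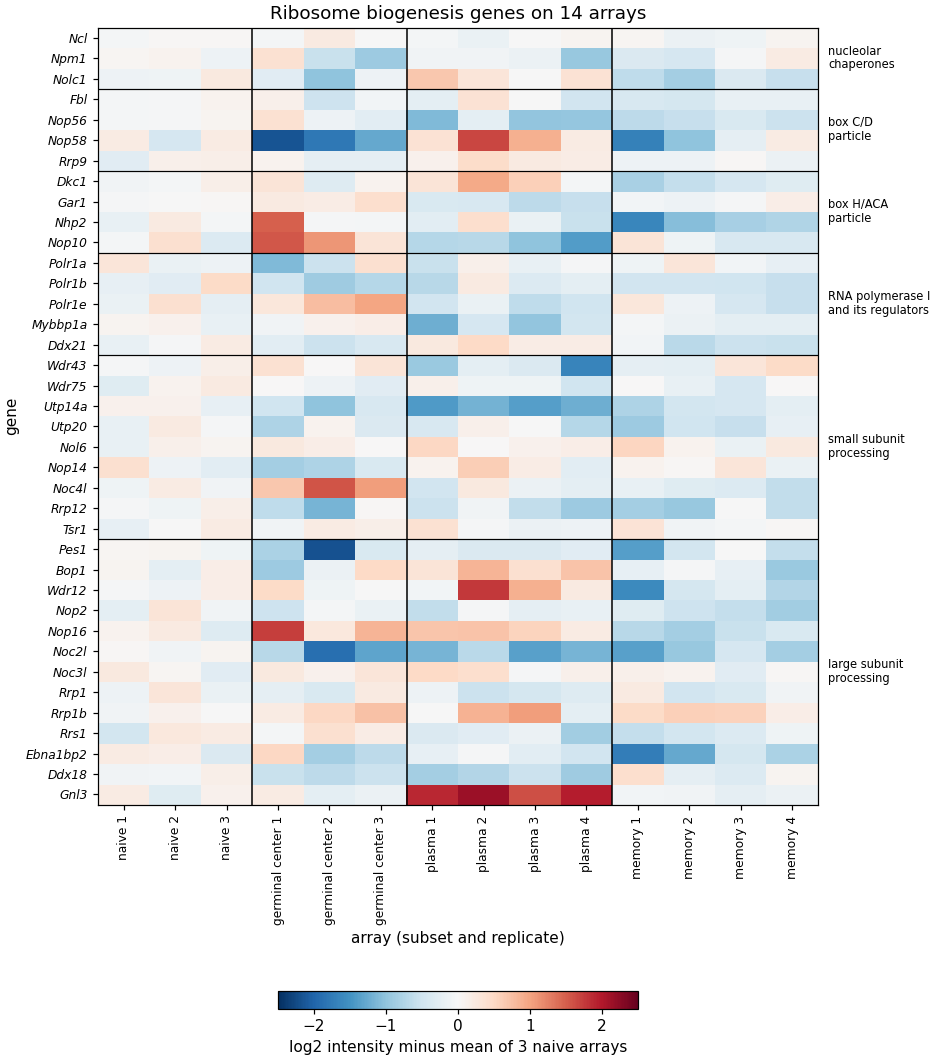
Each row is 1 of 38 genes, grouped by role, and each column 1 of 14 arrays; the colour is the log2 intensity minus the mean of the 3 naive arrays. Gnl3 is red on all 4 plasma arrays and Nop58 is blue on all 3 germinal center arrays, while most rows stay pale.

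Against naive cells, plasma cells had 1 member higher and 7 lower, 8 of 38 (21.1%), where 30.3% of all genes were called, 14.2% higher and 16.1% lower. Gnl3, which encodes nucleostemin, a nucleolar GTPase of large subunit assembly, was the 1 that was higher. Utp14a, Noc2l, Nop10, Nop56, Mybbp1a, Ddx18 and Gar1 were lower. The median over the 38 was -0.16, beside 0.06 over all genes. Over the 6116 genes with a mean log2 intensity of at least 6, called bright below, it was -0.25. The split depended on scaling, and 6 were higher and 6 lower after quantile normalization. There were 11 higher and 4 lower (39.5%, with 41.7% of all genes) when arrays were centred on the mean log2 intensity of brightly expressed genes. This centring moved the median of all genes to 0.31. The members' median was 0.03 after quantile normalization and 0.09 with this centring. Gnl3, Utp14a, Noc2l, Nop56 and Ddx18 were called under the 3 scalings tried, while Gar1, Mybbp1a and Nop10 were not called with the centring on bright genes.

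Germinal center cells had 3 members higher than naive cells (Noc4l, Nop10, Nop16) and 5 lower (Nop58, Noc2l, Polr1b, Utp14a, Ddx18), again 8 of 38 (21.1%), where 19.5% of all genes were called, 8.37% higher and 11.1% lower. The median over the 38 was -0.12, beside 0.06 over all genes and -0.20 over bright genes. This set was the least steady. Only Noc2l and Noc4l were called whichever single array was left out, and the count fell to 2 without naive replicate 1, 4 without naive replicate 3, 4 without germinal center replicate 2 and 5 without germinal center replicate 1. The calls over all genes fell too, from 3542 to 2733, 2882, 3106 and 3304 in the same order. With the actin ratio as a covariate only Nop16 of the 8 was called, and the share of all genes called fell to 8.46%. The split was 1 higher and 8 lower with median centring, 4 and 3 after quantile normalization, and 5 and 3 with centring on bright genes, which moved the median of all genes to 0.25. The members' median was 0.06 under both of the last.

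No member was called in memory against naive cells, where limma called 5.57% of all genes, 2.31% higher and 3.26% lower. At an unadjusted p under 0.05 there were 13 of 38 members, beside 17.9% of all genes. The values leaned one way, with 33 of 38 below 0 and a median of -0.32. The median was -0.03 over all genes and -0.20 over bright genes. After quantile normalization 24 of 38 were below 0 with a median of -0.16, and with centring on bright genes 26 were, with a median of -0.18. The lowest adjusted p was that of Noc2l, at -0.89 ± 0.26 (SE, limma adjusted p = 0.0652). Ebna1bp2, a factor of large subunit assembly, had 207, 203 and 141 on the naive arrays and 54.9, 75.0, 134 and 105 on the memory arrays. Its groups did not overlap, and the difference was -1.05 ± 0.33 (SE, limma adjusted p = 0.0831). Leaving out 1 array raised the count to 3 without germinal center replicate 1, to 2 without germinal center replicate 2, to 1 without memory replicate 1 and to 2 without memory replicate 3. Over all genes 1273, 1215, 744 and 927 were called in the same order, beside 1014 with all arrays.

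**Figure D2:**
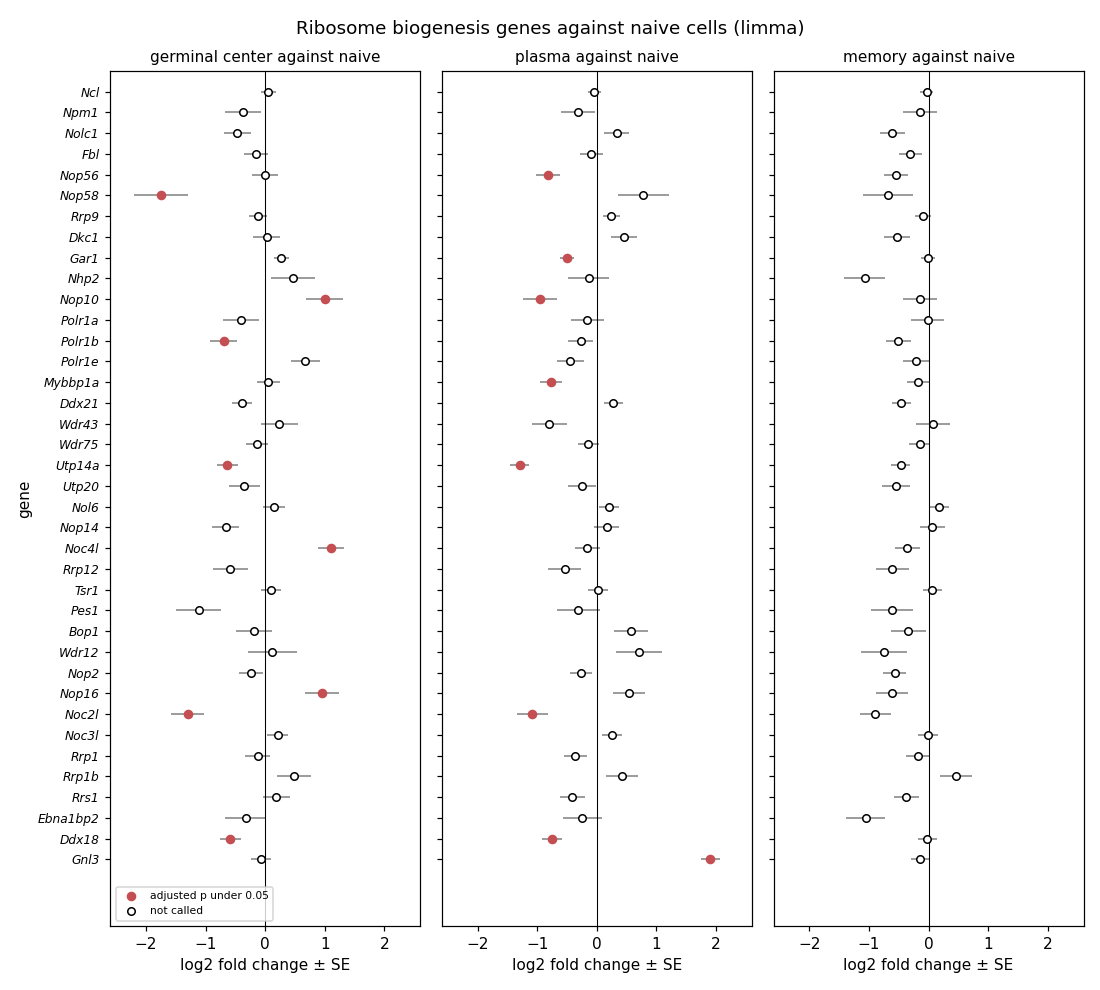
Each row is a gene and each point its log2 fold change against naive cells with the SE from limma, red where the adjusted p was under 0.05 and open otherwise, in germinal center, plasma and memory cells. Gnl3 in plasma cells stands at 1.90, and in memory cells 33 of 38 points lie left of 0 with none red.

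Among the antigen-binding subsets, plasma cells had 9 higher than memory cells and 6 lower, 15 of 38 (39.5%), where 33.2% of all genes were called, 17.2% as higher. Centring on bright genes made this 11 and 4, with 34.3% of all genes called. Plasma cells had 5 higher than germinal center cells and 8 lower, 13 of 38 (34.2%), where 23.8% of all genes were called, 11.2% as higher. Germinal center cells had 5 higher than memory cells and 2 lower, 7 of 38 (18.4%), where 22.4% of all genes were called, 11.5% as higher. Centring on bright genes made this 6 and 1, with 22.5% of all genes called. Without germinal center replicate 1 the count was 4, and the calls over all genes fell from 4084 to 3469. Of the 12319 genes above background on at least 3 arrays, 5871, 4331 and 4088 were called in the same order, larger shares than among all genes. They also exceed the members' shares in plasma against memory and germinal center against memory cells. In plasma against germinal center cells the share is close to that of the members. Each of these comparisons shares arrays with others, so their calls are given side by side and not as separate evidence.

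Among the nucleolar chaperones, Nolc1 differed between subsets and Ncl and Npm1 were called nowhere. Nolc1 encodes a chaperone that ferries small nucleolar particles. Its intensity was 961, 745, 599 and 779 on the plasma arrays, 386, 334, 467 and 406 on the memory arrays, 495, 302 and 555 on the germinal center arrays and 552, 561 and 711 on the naive arrays. All plasma arrays lay above all memory and germinal center arrays. The difference was 0.94 ± 0.20 (SE) against memory (limma adjusted p = 0.0016) and 0.80 ± 0.21 (SE) against germinal center cells (limma adjusted p = 0.0122). The second was not called without germinal center replicate 2, the array with the highest actin ratio, or with that ratio as a covariate. Neither was called on the second set of Nolc1. Ncl, nucleolin, was among the steadiest members on its brightest probe set, between 294 and 385 on all 14 arrays. The 95% interval of its plasma against naive difference ran from -0.28 to 0.20. Npm1, nucleophosmin, ranged from 2872 to 3311 on naive arrays and from 1665 to 4059 on germinal center arrays.

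Of the box C/D particle, Nop58 and Nop56 were called and Fbl, the methyltransferase, and Rrp9, which binds the U3 RNA, were not. Nop58 encodes a core protein of the particle. It had 20.4, 26.4 and 37.4 on the germinal center arrays, 106, 68.2 and 106 on the naive arrays, 117, 290.1, 169 and 105 on the plasma arrays and 28.3, 45.2, 78.1 and 105 on the memory arrays. All germinal center arrays were below all naive and plasma arrays, and the memory arrays spread across the gap. Plasma cells were higher than germinal center cells by 2.53 ± 0.43 (SE, limma adjusted p = 0.000417), a 5.76-fold difference, the widest among the members in these 6 comparisons. Germinal center cells were lower than naive cells by a log2 difference of -1.75 ± 0.45 (SE, limma adjusted p = 0.0138). That call was lost without germinal center replicate 1, naive replicate 1 or naive replicate 3. The log2 difference of plasma from memory cells was 1.46 ± 0.39 (SE, limma adjusted p = 0.00975), although the arrays of these groups overlapped. Nop58 also had the widest spread within subsets of any member, a residual SD of 0.64, where the median member had 0.30.

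Nop56, the partner of Nop58 in the particle, did not follow it. It had 1084, 1989.7, 1185 and 1194 on the plasma arrays, 2279, 2300.0 and 2450.2 on the naive arrays and 3053, 2153 and 1943 on the germinal center arrays. The plasma arrays were below all naive arrays, with plasma replicate 2 far above the other 3 and inside the germinal center range. Plasma cells were lower by -0.83 ± 0.20 (SE, limma adjusted p = 0.00548) than naive cells and by -0.82 ± 0.20 (SE, limma adjusted p = 0.00715) than germinal center cells. On the second set of Nop56 these were -0.74 and 0.31, not called.

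The 4 proteins of the box H/ACA particle were all called between plasma and memory cells, in both directions, where 33.2% of all genes were called. Only the calls of Dkc1 and Gar1 held without any single array. Dkc1, the pseudouridine synthase, had 901, 1395, 1086 and 704 in plasma and 414, 475, 541 and 584 in memory cells, and the groups did not overlap (0.99 ± 0.20 SE, limma adjusted p = 0.00128). The second set of Dkc1 gave -0.16, not called. Nhp2 had 276, 444, 293 and 226 in plasma and 106, 158, 185 and 196 in memory cells (0.93 ± 0.32 SE, limma adjusted p = 0.0361), a call that was lost without any of 5 single arrays, plasma replicates 1, 2 and 3 and memory replicates 1 and 2. Gar1 and Nop10 went the other way. The call of Nop10 (-0.81 ± 0.26 SE, limma adjusted p = 0.0298) was lost without memory replicate 1 or 2 or plasma replicate 3 or 4 (adjusted p up to 0.0977), with centring on bright genes and with a floor of 16.

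Gar1 had 583, 579, 484 and 513 in plasma, 749, 761 and 774 in naive, 888, 864 and 1013 in germinal center and 731, 701, 747 and 851 in memory cells. Every plasma array was below every other array. The log2 differences of plasma cells were -0.50 ± 0.12 (SE) from naive, -0.77 ± 0.12 (SE) from germinal center and -0.49 ± 0.11 (SE) from memory cells, with limma adjusted p of 0.00403, 0.000153 and 0.00241. Each of these calls held without any single array.

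Nop10, the smallest core protein of the particle, had 374, 375, 303 and 232 in plasma, 1803, 1319.8 and 759 in germinal center, 588, 805 and 482 in naive and 760.4, 569, 461 and 465 in memory cells. The plasma arrays were the 4 lowest, and germinal center replicates 1 and 2 the highest. Plasma cells were 3.86-fold lower than germinal center cells (log2 difference -1.95 ± 0.29 SE, limma adjusted p = 0.000124). The differences of germinal center cells were 1.00 ± 0.31 (SE, limma adjusted p = 0.0338) from naive and 1.14 ± 0.29 (SE, limma adjusted p = 0.00949) from memory cells, with overlapping arrays in both, and both were lost without germinal center replicate 1. Both were also lost with the actin ratio as a covariate. On the second set of Nop10 none of its 5 calls was repeated. Nhp2 also stood high on that array, at 926, beside 322 and 321 on the other germinal center arrays. Its difference from memory cells was 1.54 ± 0.34 (SE, limma adjusted p = 0.00449), and 1.03 at the lowest when 1 array was left out. That call was lost with the actin ratio as a covariate and on the second set of Nhp2.

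**Figure D3:**
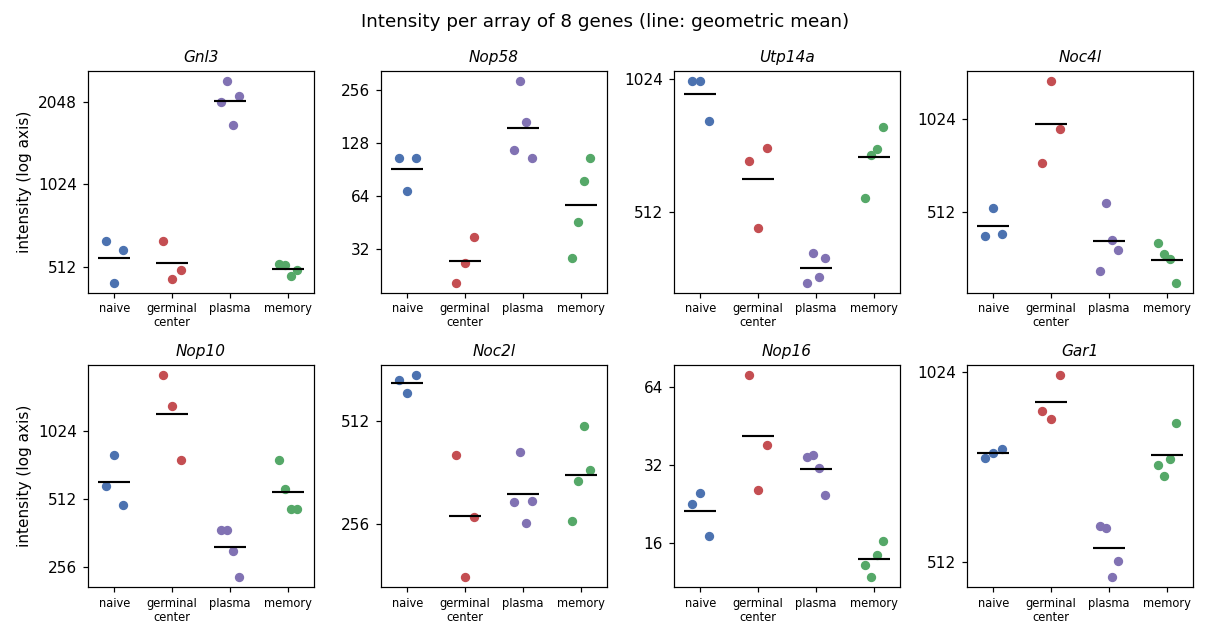
Intensity on a log axis for 8 genes, 1 point per array and a line at the geometric mean of each subset. The 4 plasma arrays stand apart for Gnl3 (1688 to 2438), Utp14a (355 to 414) and Gar1 (484 to 583), and the 3 germinal center arrays for Noc4l (736 to 1366).

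The RNA polymerase I subunits and their regulators moved in different directions. Polr1e, a subunit that helps initiation, had 187, 262 and 304 in germinal center cells, 111, 138, 99.0 and 109.5 in plasma and 187, 142, 115 and 104 in memory cells. The germinal center arrays were above all plasma arrays. Plasma cells were lower than germinal center cells by -1.12 ± 0.23 (SE, limma adjusted p = 0.00193), and germinal center cells were higher than memory cells by 0.88 ± 0.23 (SE, limma adjusted p = 0.0112), a call lost without germinal center replicate 3 or with the actin ratio as a covariate. Neither difference was called on the second set of Polr1e. Polr1b, the second largest subunit, had 93.8, 71.7 and 80.5 in germinal center and 115, 108 and 185 in naive cells. The groups did not overlap, but the call (-0.70 ± 0.23 SE, limma adjusted p = 0.0449) was lost without any of 10 single arrays.

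Mybbp1a, a nucleolar protein that represses RNA polymerase I, was lower in plasma cells than in every other subset. It had 984, 1726, 1154 and 1679 on the plasma arrays and between 1925 and 2565 on all others. The differences were -0.77 ± 0.18 (SE) from naive, -0.82 ± 0.18 (SE) from germinal center and -0.60 ± 0.17 (SE) from memory cells, with limma adjusted p of 0.00482, 0.00379 and 0.0133. On the second set of Mybbp1a, above background on 7 arrays, none was called and those from naive and germinal center cells were 0.048 and 0.0094. Ddx21, a helicase that couples polymerase I transcription to processing, had 695, 831, 667 and 664 in plasma, 492, 407 and 444 in germinal center and 560.3, 367, 406 and 399.7 in memory cells. Every plasma array was above both other groups. It was higher in plasma than in memory cells by 0.73 ± 0.15 (SE, limma adjusted p = 0.00111) and than in germinal center cells by 0.67 ± 0.16 (SE, limma adjusted p = 0.00559). Its next probe set turned both signs (-0.93, called, and -0.73, not called), and so did the mean of its sets (-0.10 and -0.031).

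Among the 9 small subunit factors, Utp14a, a component of the processome, had 355, 414, 365 and 404 in plasma, 1011, 1012 and 821 in naive, 667, 472 and 715 in germinal center and 552, 689, 709.6 and 796 in memory cells. Plasma arrays were the 4 lowest and naive arrays the 3 highest. Plasma cells were 2.46-fold lower than naive cells (log2 difference -1.30 ± 0.16 SE, limma adjusted p = 2.48e-05), and lower than memory cells by -0.83 ± 0.15 (SE, limma adjusted p = 0.00061). The difference from germinal center cells was -0.66 ± 0.16 (SE, limma adjusted p = 0.00806). Germinal center cells were also lower than naive cells, by -0.63 ± 0.18 (SE, limma adjusted p = 0.0199), a call lost without germinal center replicate 2, naive replicate 1 or naive replicate 2. On the second set of Utp14a, above background on 10 arrays, germinal center cells were instead higher than naive cells (0.49, called), and plasma cells were 0.11 from naive cells, not called.

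Noc4l stood out in germinal center cells. It encodes a partner of Nop14 in small subunit assembly, and had 736, 1366 and 950.4 in germinal center cells, 425, 527 and 432 in naive, 328, 546, 414 and 385 in plasma and 404, 374, 360.1 and 301 in memory cells. All 3 germinal center arrays were above the other 11, and replicate 2, with the highest actin ratio, was the highest. The differences were 1.10 ± 0.22 (SE) from naive and 1.46 ± 0.21 (SE) from memory cells, with limma adjusted p of 0.00262 and 0.000141, and plasma cells differed from germinal center cells by -1.26 ± 0.21 (SE, limma adjusted p = 0.000366). These 3 calls held without any single array, but those against naive and memory cells were lost with the actin ratio as a covariate. Nop14 itself had the opposite order, with 24.6, 25.7 and 34.0 in germinal center cells, 46.7, 44.9, 54.6 and 39.5 in memory and 47.1, 68.0, 50.1 and 37.0 in plasma cells. The germinal center arrays were the lowest of these 11. Germinal center cells were lower than memory cells by -0.73 ± 0.21 (SE, limma adjusted p = 0.0225), lost without germinal center replicate 1 or 2 or memory replicate 3, and plasma cells were higher than germinal center cells by 0.83 ± 0.21 (SE, limma adjusted p = 0.00992). Wdr43, an early processome protein, had 289.7, 468, 433 and 176 in plasma and 718, 558 and 697 in germinal center cells, without overlap (-1.04 ± 0.29 SE, limma adjusted p = 0.0162). That call was lost without germinal center replicate 1 or 3, and the second set of Wdr43 gave 0.18, not called.

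Of the 13 large subunit factors, Gnl3 gave the smallest p-values of any member. It had 2039, 2438, 1688 and 2153 on the plasma arrays, 633, 448 and 591 on the naive arrays, 634, 462 and 497 on the germinal center arrays and 522, 517, 472 and 496 on the memory arrays. The lowest plasma array was above every other array, and the other 3 subsets overlapped. Plasma cells were 3.74-fold higher than naive cells, a log2 difference of 1.90 ± 0.16 (SE, limma adjusted p = 4.01e-07). The log2 difference was 1.97 ± 0.16 (SE, limma adjusted p = 3.8e-07) from germinal center and 2.04 ± 0.15 (SE, limma adjusted p = 7.41e-08) from memory cells. Gnl3 has 1 probe set, so these 3 calls could not be checked on another, and none of the other settings tried, single arrays left out and scalings included, ended them.

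Noc2l, which carries the pre-60S particle with Noc3l, had 675, 622 and 699 in naive, 408, 179 and 268 in germinal center, 297, 417, 258 and 299 in plasma and 260.2, 343, 495 and 369 in memory cells. Every naive array was above the other 11. The difference from naive cells was -1.30 ± 0.28 (SE, limma adjusted p = 0.00391) in germinal center and -1.09 ± 0.26 (SE, limma adjusted p = 0.00512) in plasma cells, and both calls held without any single array. Its second set gave -0.14 and -0.16, not called. Ddx18, a helicase of large subunit assembly, had 624, 676, 771 and 604 in plasma, 759, 715 and 768 in germinal center, 1059, 1062 and 1245 in naive and 1497, 952, 885 and 1178 in memory cells. Plasma and germinal center arrays overlapped each other and lay below all naive and memory arrays. The difference of plasma cells was -0.75 ± 0.17 (SE, limma adjusted p = 0.00298) from naive and -0.73 ± 0.15 (SE, limma adjusted p = 0.00178) from memory cells. On its second set these were -0.46 and -0.25, not called. The differences of germinal center cells for Ddx18 were -0.58 from naive and -0.56 from memory cells (limma adjusted p = 0.0328 and 0.0246). The first call was lost without any 1 of the 6 arrays compared, and the second without germinal center replicate 1 or 2 or memory replicate 1 or 4.

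Nop16, a dim gene near background, had 70.8, 25.7 and 38.2 in germinal center cells, 34.2, 34.9, 31.1 and 24.4 in plasma, 22.6, 25.0 and 17.0 in naive and 13.2, 11.8, 14.4 and 16.3 in memory cells. The memory arrays were the 4 lowest. Its difference from memory cells was 1.57 ± 0.27 (SE, limma adjusted p = 0.000663) in germinal center and 1.16 ± 0.25 (SE, limma adjusted p = 0.00214) in plasma cells, and the germinal center difference from naive cells was 0.95 ± 0.29 (SE, limma adjusted p = 0.0319), lost without germinal center replicate 1, naive replicate 1 or naive replicate 3. On the second set of Nop16 the last was -0.59, and none of the 3 was called. Bop1 and Wdr12, which form a complex with Pes1, were higher in plasma than in memory cells on their brightest sets. Bop1 had 152, 221, 161 and 199 in plasma and 106, 119.9, 106 and 64.2 in memory cells, without overlap (0.91 ± 0.27 SE, limma adjusted p = 0.0156), and the call was lost without memory replicate 4 or plasma replicate 2. Its second set gave -0.42, not called. Wdr12 had 92.5, 333, 180.1 and 113 in plasma and 32.4, 72.1, 82.5 and 58.4 in memory cells (1.45 ± 0.36 SE, limma adjusted p = 0.0054), but -1.25 on its second set, called the opposite way. Pes1 itself was not called, with 83.0, 31.5 and 111 in germinal center and 148, 150.3 and 133 in naive cells (-1.12 ± 0.38 SE, limma adjusted p = 0.0548).

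On the brightest probe sets, most differences that were not called were bounded to less than a 2-fold change. In plasma against naive cells, 6 further sets above background on all arrays were called where the brightest was not. The 95% interval of the log2 difference lay within 1 of 0 for 23 of 30 such members in plasma against naive, 20 of 30 in germinal center against naive and 27 of 38 in memory against naive cells. The replicates shifted some members together. Plasma replicate 2 was the highest of the plasma arrays for 26 of 38 members and plasma replicate 4 the lowest for 17. The median member on an array, relative to the naive mean, lay between -0.27 and -0.01 on plasma, -0.14 and -0.02 on germinal center, and -0.42 and -0.21 on memory arrays. The median bright gene lay between -0.29 and -0.19, -0.35 and -0.05, and -0.23 and -0.10 in the same order. In bulk RNA of sorted cells, fewer cells of a type and less RNA per cell cannot be told apart.

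The wider pathway was drawn from 138 further genes, of which 134 were measured. In plasma against naive cells 13 were higher and 33 lower (34.3%, with 30.3% of all genes called), and in germinal center against naive cells 10 were higher and 20 lower (22.4%, with 19.5% of all genes). In memory against naive cells 1 was higher and 4 lower (3.73%, with 5.57% of all genes). Their medians were -0.27, -0.23 and -0.35, beside the members' own -0.16, -0.12 and -0.32. The split of the plasma calls depended on scaling here too, with 23 higher and 25 lower after quantile normalization, 29 and 20 with centring on bright genes and 7 and 40 with median centring. That of the germinal center calls was 12 and 15, 15 and 16, and 7 and 29 in the same order. The RNA polymerase I factors included Taf1d, higher in germinal center cells by 1.46, in plasma by 0.75 and in memory by 1.57, and Taf1a and Polr1c, which were -1.23 and -1.09 in plasma against naive cells. Among small subunit factors Bysl and Utp6 were higher in plasma cells by 1.27 and 1.18, while Ddx10 (-1.74) and Aatf (-0.94) were lower. Among large subunit factors Ddx31 and Rpf1 were lower in plasma cells (-1.83 and -1.65). Tgs1, which methylates the cap of some small nucleolar RNAs, was lower in both plasma (-1.48) and germinal center cells (-1.30). Naf1, an assembly factor of box H/ACA particles, was higher in germinal center cells (1.72). All of these passed the limma threshold, and also did so under the 3 scalings, except Taf1d in plasma cells, which was not called with median centring.

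Of 26 measured S phase genes, 24 were higher in germinal center than in naive cells and 0 lower (92.3%, with 19.5% of all genes called), with a median of 2.18. In plasma cells 23 were higher and 1 lower (92.3%, with 30.3% of all genes), with a median of 1.62. Both medians held their sign under the 3 scalings, and were 2.04 and 1.46 at the lowest. In memory cells 1 was higher and 8 lower (34.6%, with 5.57% of all genes), with a median of -0.46. Mki67, which encodes the Ki-67 protein of dividing cells, had 5180.3 to 8589 on germinal center arrays and 5467 to 6522 on plasma arrays, but 197 to 282 on memory and 9.21 to 32.9 on naive arrays. Of 78 listed cytosolic ribosomal proteins, the building blocks whose assembly the members serve, 44 were measured. In plasma against naive cells 17 of the 44 were lower and 0 higher (38.6%, with 30.3% of all genes called), with a median of -0.41. The lower count was 5 with centring on bright genes, 12 after quantile normalization and 26 with median centring. In germinal center cells 4 were lower and 1 higher (11.4%, with 19.5% of all genes), and the lower count was 3, 5 and 13 in the same order. Some of these sets were dim, with Rps16 below background on every naive and memory array. Of 12 genes of the Myc network, 4 were higher and 4 lower in plasma than in naive cells (66.7%, with 30.3% of all genes called). Myc itself was among the lower, with a log2 difference of -1.45 ± 0.30 (SE, limma adjusted p = 0.00192) from naive and -2.02 ± 0.28 (SE, limma adjusted p = 4.95e-05) from memory cells. Mga, a repressor of Myc targets, was lower by a log2 difference of -2.47, and Mxd3, another repressor, was higher in germinal center cells by 2.47. Whether any list differs from another was not tested.

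**Figure D4:**
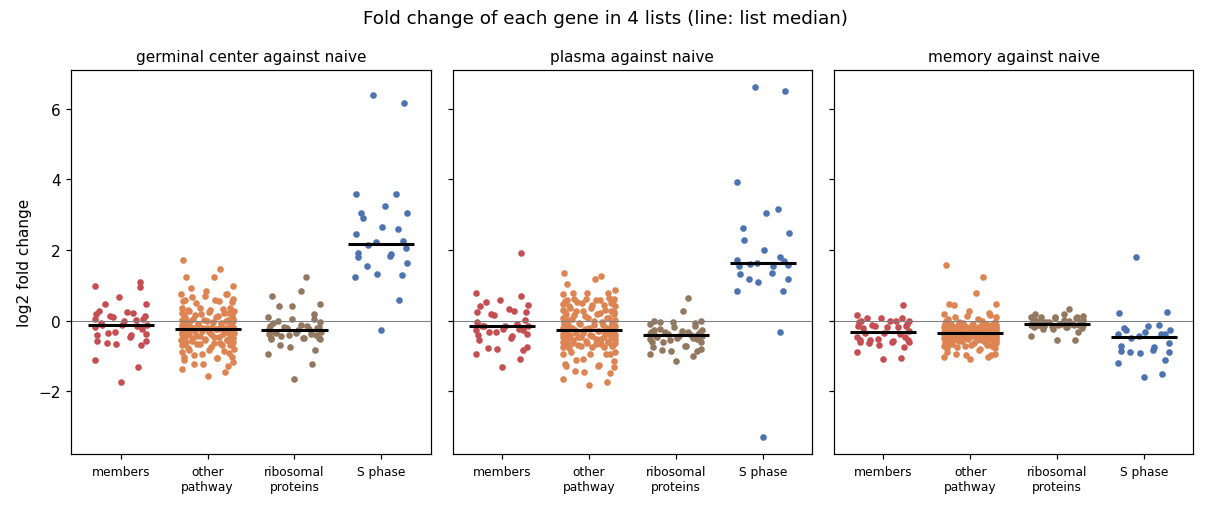
Each point is the log2 fold change of 1 gene against naive cells in germinal center, plasma and memory cells, for the 38 members, 134 other pathway genes, 44 ribosomal proteins and 26 S phase genes, with a line at each list's median. The S phase medians are 2.18 and 1.62 in germinal center and plasma cells, where the members' medians are -0.12 and -0.16.

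Probe sets of the same gene did not always tell the same story. The 38 genes had 81 probe sets, and 20 had a further set above background on all 14 arrays, 26 such sets in all. In plasma against memory cells the brightest set was called for 9 of these 20 genes. A further set was called the opposite way for 3 of them, and the same way for 0. Ddx21 was 0.73 on its brightest set and -0.93 on the next, Wdr43 was -0.88 and 0.72, and Wdr12 was 1.45 and -1.25. Noc4l was repeated by its second set (0.95 in germinal center against naive and 1.54 against memory cells), while its other 2 bright sets were not called in any comparison. The names of both called sets of Noc4l, and of the brightest sets of Ncl, Polr1e and Rrs1, end in x_at. The manufacturer gives this suffix to sets whose probes can match other transcripts. The brightest sets of 6 members, Gar1, Nhp2, Nop56, Wdr43, Fbl and Tsr1, end in s_at. What else the probes of these sets match was not tested. Ncl was steady on its brightest set, but another of its sets was lower in plasma cells by -2.13 against naive and -1.72 against memory cells (limma adjusted p = 9.12e-07 and 2.82e-06). Noc3l, called nowhere on its brightest set, was -1.32 in plasma against naive cells on the next (limma adjusted p = 2.22e-05). These p-values were adjusted over all 34945 probe sets with 1 symbol.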

How the data were processed

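The values are the deposited intensities, 1 for each probe set on each array. RMA is named in the submitters' processing notes; its version and chip definition are not given in the sources used here. They are linear and above 0, and log2 needed no pseudocount. Of 45101 probe sets, 34945 carry 1 gene symbol, per the platform annotation. Each gene was represented by its brightest such set (18193 genes). Background was the brightest of 27 bacterial control sets that were not spiked in, 11.0 to 16.1 by array. Linear models with 1 mean per subset were fitted to all 14 arrays with limma 3.58.1 in R 4.3.3 (eBayes without trend), two-sided, and adjusted by Benjamini-Hochberg within each of 6 comparisons; genes with an adjusted p under 0.05 were called. The script was tested on simulated data. The number of arrays limits the precision. Alternatives covered scaling, background, probe set, covariates, thresholds and single arrays left out; fitting every probe set as its own row was added after seeing the data. Members were named by role, with values where called; of other lists, up to 2 genes with the largest called change in each direction were named, apart from Myc, chosen after its values were seen. The members and lists were chosen with earlier results of these data known. Sequences came from RefSeq.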

Additional observations from a re-analysis of the deposited data

Results flagged for a closer look

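In groups of 4 arrays, 1 array stood far from the other 3 in 4 of 76 tests (38 members in plasma and in memory cells), where chance gives about 1 in 20. Npm1 had 1616 on plasma replicate 4, where the others had 2809.9 to 2960.4. Nop56 had 1989.7 on plasma replicate 2, where the others had 1084 to 1194. Rrp9 had 77.5 on memory replicate 3, where the others had 68.4 to 69.8. Polr1b had 88.6 on memory replicate 4, where the others had 93.8 to 94.7.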

How the results depend on the processing

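Of the 51 called member differences, 34 were called whichever single array was left out, 39 under each of 3 scalings (median centring, quantile normalization, centring on bright genes) and 31 under both. The choice of probe set reversed 13 calls, which concern Utp14a, Nop16, Mybbp1a, Dkc1, Ddx21, Wdr43, Bop1, Wdr12 and Nop56; the cause was not tested. On the second brightest set, in germinal center against naive cells, Utp14a was 0.49 and Nop16 -0.59. In plasma against naive cells Mybbp1a was 0.048 and Utp14a 0.11. In plasma against memory cells Dkc1 was -0.16, Ddx21 -0.93, Wdr43 0.72, Bop1 -0.42 and Wdr12 -1.25. In plasma against germinal center cells Nop56 was 0.31, Mybbp1a 0.0094, Ddx21 -0.73 and Wdr43 0.18. With the mean of all probe sets Ddx21 was -0.10 against memory and -0.031 against germinal center cells.

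Counts of called members moved as follows. With the actin ratio as a covariate they were 1 in germinal center against naive, 1 in germinal center against memory and 2 in memory against naive cells, where 8.46%, 9.78% and 6.22% of all genes were called. Germinal center against naive gave 3 with array weights, 5 with a floor of 16 and 4 with only the arrays of the subsets compared. The share of all genes called was 15.4%, 14.7% and 13.2% in the same order, beside 19.5% in the main fit. Memory against naive gave 1 with array weights, 1 with dim genes left out, 1 with median centring, 2 with the mean of probe sets, 2 with the second brightest set and 3 with only the arrays compared. Over all genes 1257, 1110, 1040, 1075, 626 and 1049 were called in the same order, beside 1014 in the main fit. Plasma against naive gave 15 with centring on bright genes (41.7% of all genes), and plasma against germinal center gave 7 with the second brightest set. In the last, 3167 of all genes were called, beside 4331 in the main fit. At an adjusted p under 0.01 germinal center against naive gave 2 and against memory 4. With a log2 change of at least 1 as well, the counts were 3 in germinal center against naive, 4 in germinal center against memory, 3 in plasma against naive, 4 in plasma against memory and 6 in plasma against germinal center. With 1 array left out they ran from 2 to 10 in germinal center against naive, 4 to 8 in germinal center against memory, 0 to 3 in memory against naive, 7 to 9 in plasma against naive, 13 to 16 in plasma against memory and 13 to 14 in plasma against germinal center.

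Whether replicate numbers pair the samples could not be decided. Of 19 pairs with the same number, 6 had deviations correlated above 0.1 (range -0.22 to 0.25). Pairs with different numbers reached beyond both ends of this range. Deviations from the mean of a small group cancel within it, which forces correlations of mixed sign with or without pairing. With the replicate block 47 of the 51 differences were still called, and germinal center against naive gave 6. Signal near background limits Nop16.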

Other observations

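The 3' control probe set for 18S ribosomal RNA, the end product of the pathway, had 925 to 1791 on naive, 133 to 719 on germinal center, 180.0 to 878 on plasma and 552 to 2563 on memory arrays. Whether the amplification primed ribosomal RNA alike on each array is not given in the labels.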
